A study of Caenorhabditis elegans with 24 samples.

Results

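The *set-9 set-26* double mutant of *Caenorhabditis elegans* was compared with the *set-9* single mutant, which shows how the RNA of the worm differed when *set-26* was lost and *set-9* was already absent. The comparison rests on 4 of the 8 RNA-seq libraries among the 24 samples of the series, 2 of each genotype, taken from the columns labelled *set-9 set-26* and *set-9*. Of the 46508 genes in the table, 14667 had at least 20 reads in at least 1 of the 8 libraries and were tested. The *set-9* mutant carries the *rw5* allele, a deletion made by genome editing that leads to a premature stop. The double mutant carries *rw5* and the *tm2467* deletion of *set-26*, so both groups lack *set-9* function. The double mutant was kept as a heterozygote over the balancer nT1, a translocation of chromosomes IV and V. The study profiled homozygotes of the first generation, from balanced parents, and of the third, and the labels do not say which one these libraries hold. For *asp-12*, *M04C3.1*, *grd-13*, *his-1*, *catp-3* and *inx-2* the study lists RNA-seq changes of third-generation double mutants over wild type. The log2 ratios of these libraries to N2 come close to them, so the third generation is likely. The paper describes greatly reduced fertility and a germline of different form in that generation. The other 4 libraries were wild type (N2) and the *set-26(tm2467)* single mutant. All were whole worms at the fourth larval stage (L4) from which ribosomal RNA had been removed. Each library is a pool of worms, and the labels do not say whether the 2 libraries of a genotype came from separate cultures, so p-values measure the spread between these samples.

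SET-9 and SET-26 are closely related nuclear proteins, each with a PHD finger and a SET domain, and SETD5 and MLL5 are their likely mammalian homologs. In vitro the PHD finger binds histone H3 that is trimethylated at lysine 4 (H3K4me3) and also acetylated nearby. H3K4me3 marks the start of active genes. SET-26 is found in most tissues, and SET-9 in the germline. At the L4 stage a hermaphrodite germline makes sperm before it switches to oocytes, and the epidermis secretes the adult cuticle ahead of the last molt. Many genes of both programmes therefore change within hours, and a difference in RNA from whole worms can come from another number of cells, from another amount of RNA per cell or from another age within the stage, which cannot be told apart here.

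The libraries held 16401207 to 26256130 reads, and log2 levels of the 2 libraries of a genotype had a Pearson's r across genes of 0.959 to 0.971, where genes are not independent replicates. The 4 pairs of 1 double mutant and 1 *set-9* library had an r of 0.889 to 0.918. Levels are given as CPM (counts per 1000000 reads) after edgeR's TMM scaling, in the order of replicate 1 and replicate 2. The standard error of each log2 fold change rests on the spread over all 8 libraries. A gene was called under a 5% false discovery rate in edgeR's quasi-likelihood test, adjusted over all 14667 genes. Groups of 2 libraries allow no permutation test, since its smallest two-sided p is 0.333. Markers of germline, muscle, pharynx, intestine, epidermis, neurons and somatic gonad were read in all 8 libraries, and 1 of 12 listed embryo markers passed the filter on reads.

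The sample labels were checked first on *set-9* itself (WBGene00017482, chromosome IV of WBcel235, 4307896 to 4317140). Its level was 46.04 and 39.9 CPM in *set-9* and 30.6 and 33.0 CPM in the double mutant, against 90.4 and 91.4 in N2 and 115 and 107 in *set-26*. All 4 libraries labelled as *set-9* mutants were thus below the 4 others. The log2 fold change of the double mutant over *set-9* was −0.44 (standard error 0.11, adjusted p = 0.029 in edgeR's quasi-likelihood test). That call was lost without any 1 of the 4 libraries, where the adjusted p ran from 0.055 to 0.15. Of its exonic stretches of 50 bases, 33.4% occur in another gene, so part of its reads could come from *set-26*, whose own row was not analysed here. The genes next to both copies, *Y24D9B.1* and *Y51H4A.13*, share 51.2% and 51.5% of their stretches with another gene. *Y51H4A.13* had 1.33 and 1.24 CPM in *set-9* and 4.72 and 5.56 in the double mutant, a rise of 1.99 on the log2 scale (standard error 0.29, adjusted p = 0.0045). *Y24D9B.1* had 2.22 and 2.02 CPM against 5.56 and 4.79 (log2 fold change 1.28, standard error 0.38, adjusted p = 0.042), a call lost without any 1 of the 4 libraries.

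Loss of *set-26* in worms without *set-9* went with a change in RNA level at a large share of genes. In the double mutant 2085 genes were higher than in *set-9*, 14.2% of those tested, and 1715 were lower, 11.7% of those tested. The rises were larger than the falls, with a median log2 fold change of 1.96 among the genes that were higher and −0.78 among those that were lower. Of the higher genes 1712 changed at least 2-fold and 1004 at least 4-fold, and of the lower genes 566 and 139. Before adjustment 5683 genes, 38.7% of those tested, had p under 0.05. The median over all tested genes was 0.00. The calls rested on all 4 libraries. Without *set-9* replicate 1 there were 1695 higher and 1091 lower, and without *set-9* replicate 2 there were 811 and 671. Without double mutant replicate 1 there were 916 and 893, and without its replicate 2 there were 725 and 668.

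**Figure D1:**
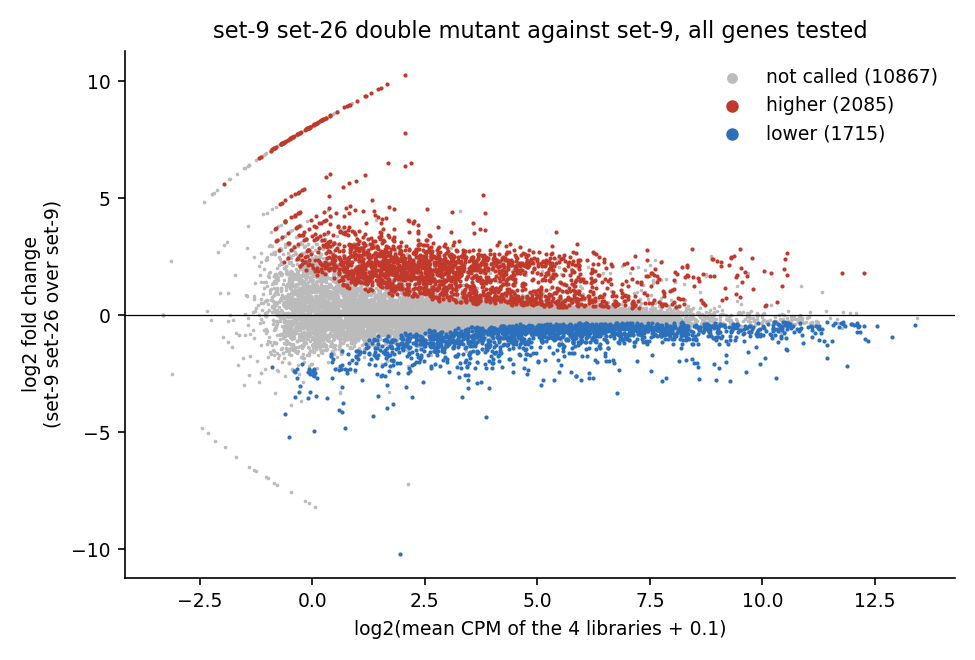
Each point is 1 of the 14667 genes tested, with its mean CPM over the 2 *set-9* and 2 double mutant libraries on the x axis (log2 scale) and the log2 fold change of the double mutant over *set-9* on the y axis. The 2085 genes called higher reach further from 0 than the 1715 called lower, and the points at the top left are genes with few or no reads in *set-9*.

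The other genotypes place these genes. Among the 2085 higher genes, 1684 (80.8%) had both double mutant libraries above all 6 other libraries, against 20% of the genes tested, and 867 (41.6%) had both *set-9* libraries below the other 6, against 8.1%. Of the 1715 lower genes, 1455 (84.8%) had both double mutant libraries below the other 6, against 16.8% of the genes tested, and 551 (32.1%) had both *set-9* libraries above the other 6, against 6.63%. The choice of genes by the same libraries raises these shares, so they describe the calls and test nothing.

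Sperm genes rose in large numbers. Of 29 tested genes for major sperm protein (MSP), the protein whose filaments drive the crawling of nematode sperm, 21 were higher in the double mutant and none was lower, with a median log2 fold change of 2.14. Of 25 genes of small sperm protein families (such as *nspd*, *ssp* and *sss*), 21 were higher, and the median was 2.38. Of 27 *spe* and *fer* genes, which were named for defects in making or activating sperm, 17 were higher, and the median was 1.51. None of these 3 lists had a lower member, and none of their genes had both double mutant libraries below both *set-9* libraries, which 32.7% of all tested genes had. Every one of the 29 MSP genes had both double mutant libraries above both *set-9* libraries, which 34.4% of all tested genes had.

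MSP genes are near copies of each other, which limits how far reads can be assigned to one of them. The first 60 bases of the coding sequence of the 3 members with the highest mean level over the 4 libraries are shown for that reason, from the RefSeq genome of build WBcel235, with capitals where a base differs from *msp-64*. They lie at chrII:5810271-5810330 on the minus strand, at chrII:5797927-5797986 on the plus strand and at chrIV:9689015-9689074 on the plus strand.
msp-64: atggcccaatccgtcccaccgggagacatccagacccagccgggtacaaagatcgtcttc
msp-142: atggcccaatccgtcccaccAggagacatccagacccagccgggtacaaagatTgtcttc
msp-76: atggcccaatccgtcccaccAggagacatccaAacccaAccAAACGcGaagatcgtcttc
*msp-142* differs from *msp-64* at 2 of the 60 bases and *msp-76* at 9. Of the 29 tested MSP genes, 19 share more than 50% of their exonic 50-base stretches with another gene, so levels of single members are uncertain.

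*msp-64* had 62.3 and 25.6 CPM in *set-9* and 311 and 297 in the double mutant, 6.9-fold more by the group means (log2 fold change 2.79, standard error 0.59, adjusted p = 0.014). *msp-142* went from 27.8 and 13.4 CPM to 128 and 136 (log2 fold change 2.68, standard error 0.46, adjusted p = 0.0068). *msp-76* had 24.8 and 9.05 CPM against 55.8 and 60.8, and its adjusted p of 0.054 missed the threshold. The groups did not overlap for any of the 3 genes, and in *set-9* replicate 2 was the lower library each time.

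Sperm genes outside the MSP family gave the same picture with less sharing of sequence. *spe-6*, a casein kinase that holds back sperm activation, had 1.17 and 0.521 CPM in *set-9* and 6.84 and 6.52 in the double mutant (log2 fold change 2.95, standard error 0.39, adjusted p = 0.0036). *spe-8*, a tyrosine kinase of sperm activation, went from 2.39 and 1.498 CPM to 8.32 and 11.4 (log2 fold change 2.33, adjusted p = 0.0048). The sperm protein phosphatases *gsp-3* and *gsp-4*, which act in sperm meiosis and motility, rose by log2 2.12 each, to 54.7 and 61.8 CPM and to 64.2 and 64.4 CPM. They had stood at 17.2 and 9.44 CPM and at 19.3 and 10.23 CPM in *set-9*. *nspd-10* and *ssp-19*, of the small sperm families, had log2 fold changes of 2.71 (adjusted p = 0.016) and 3.22 (adjusted p = 0.0097), again by the quasi-likelihood test.

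Argonautes of spermatogenesis were also higher. Argonautes are the proteins that carry small RNAs, and of 18 tested members of the list 4 were higher and 2 lower (22.2% and 11.1%, beside the 14.2% and 11.7% of all genes). The number of higher members was 1 without double mutant replicate 2 and 3 to 5 without another library. *alg-3* had 13.8 and 6.77 CPM in *set-9* and 36.8 and 51.7 in the double mutant, and *alg-4*, its close relative, 10.3 and 6.905 against 25.5 and 32.6. Both bind small RNAs that target sperm genes, and their log2 fold changes were 2.10 (standard error 0.39, adjusted p = 0.0093) and 1.75 (standard error 0.27, adjusted p = 0.0053). The 2 lower Argonautes act in the germline at large. *ppw-2* fell from 252 and 233 CPM to 114 and 115 (log2 fold change −1.08, standard error 0.12, adjusted p = 0.0019), and *wago-4*, which passes silencing to offspring, from 85.1 and 84.3 to 44.7 and 52.4 (log2 fold change −0.80, adjusted p = 0.0044).

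The level of sperm RNA also differed between libraries of 1 genotype. The summed level of the 29 MSP genes was 290 and 125 CPM in *set-9* and 1017 and 1045 in the double mutant, against 703 and 275 in N2 and 489 and 288 in *set-26*. Replicate 2 was thus lower than replicate 1 in each genotype but the double mutant, and both double mutant libraries were above all 6 others. The part of the worms' age within the stage in these sums was not tested. Without *set-9* replicate 2 the number of MSP genes called was 6, without double mutant replicate 1 it was 7 and without its replicate 2 it was 5, against 22 without *set-9* replicate 1. The small sperm families then had 11, 12, 9 and 20 calls, and the *spe* and *fer* genes 7, 7, 5 and 14. In these fits *msp-142*, *spe-6*, *spe-8*, *gsp-3*, *gsp-4* and *alg-4* stayed called. *msp-64* and *nspd-10* were lost without *set-9* replicate 2 and without either double mutant library (highest adjusted p 0.072 and 0.078). *ssp-19* was lost without replicate 2 of either genotype (0.061), and *alg-3* without double mutant replicate 2 (0.059).

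**Figure D2:**
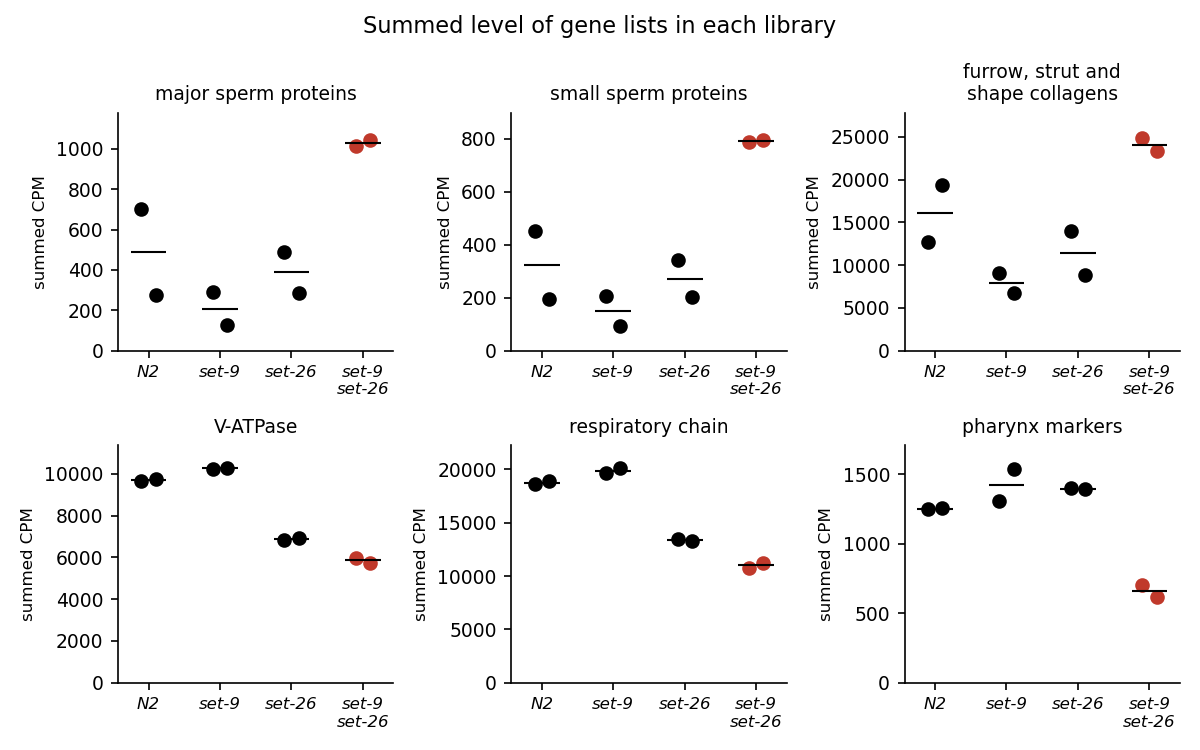
Points give the summed CPM of a gene list in each of the 8 libraries (replicate 1 to the left), with bars at the mean of the 2 libraries and the double mutant in red. The 29 MSP genes sum to 1017 and 1045 CPM in the double mutant and to 125 to 703 CPM in the other libraries, and the 38 respiratory chain genes to 10750 and 11250 against 13290 to 20130.

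Few oocyte genes passed the threshold, though most were on the side of the double mutant. Of 38 tested genes of oocytes and the eggshell, 2 were higher and none lower, against 14.2% higher among all genes, with a median log2 fold change of 0.67. Of the 38, 34 had a log2 fold change above 0, and 27 had both double mutant libraries above both *set-9* libraries, which 34.4% of all genes had. The count depended on the test and the filter, with 6 higher by DESeq2's Wald test, 7 by edgeR's exact test or with only the libraries compared, and 11 with no filter on low counts. It was 0 without *set-9* replicate 2 or either double mutant library. The 2 were *egg-3*, a pseudo-phosphatase of the egg cortex (2.67 and 3.26 CPM in *set-9*, 4.93 and 6.22 in the double mutant, adjusted p = 0.040), and *gna-2*, an enzyme that supplies the precursor of eggshell chitin (10.497 and 7.75 against 21.3 and 18.3 CPM, adjusted p = 0.041). Both calls were lost without any 1 of the 4 libraries. *perm-4*, an eggshell permeability gene, stood at 213 and 63.1 CPM in *set-9* and 827 and 761 in the double mutant (log2 fold change 2.52, standard error 0.87, adjusted p = 0.070). The yolk protein genes, which the intestine makes at the start of adulthood, varied widely between the *set-9* replicates. *vit-2* had 1696 and 516 CPM in *set-9* and 3206 and 2033 in the double mutant (adjusted p = 0.29), and *vit-6* 2500 and 903 against 3994 and 2866 (adjusted p = 0.34). None of the 6 tested *vit* genes was called, and 4 of them had both double mutant libraries above both *set-9* libraries.

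Germ granules are RNA and protein bodies of the germline, and embryonic granules need MEG proteins. Of 23 tested genes of germ granules, 5 were higher, and 1, *wago-4*, was lower, and the number of higher genes was 1 without replicate 2 of either genotype. With all libraries 21.7% of the list was higher and 4.35% lower, beside the 14.2% and 11.7% of all genes. The list as a whole moved little, with a median log2 fold change of 0.06, 12 genes above 0 and 11 below. *meg-2* had 1.33 and 2.48 CPM in *set-9* and 24.3 and 24.8 in the double mutant, 12.99-fold more by the means (log2 fold change 3.70, standard error 0.31, adjusted p = 0.0011). N2 and *set-26* held it at 2.17, 1.82, 1.00 and 1.46 CPM, so only the double mutant libraries of the 8 were above 3 CPM. *meg-1* went from 9.78 and 3.78 CPM to 35.8 and 35.7 (log2 fold change 2.39, adjusted p = 0.029), a call lost without *set-9* replicate 2 and without either double mutant library (highest adjusted p 0.13).

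Some genes of the proliferating germline were lower, and few genes of the meiotic axis and synapsis passed. Of 18 tested genes of germline stem cells and entry into meiosis, 4 were lower (22.2%, beside the 11.7% of all genes) and none higher, and the median was −0.11. The number of lower genes was 2 without *set-9* replicate 2 and 1 without any of the other 3 libraries. *fbf-1* and *fbf-2*, PUF proteins that keep germline stem cells undifferentiated, fell from 46.8 and 41.6 CPM to 28.5 and 26.96 and from 24.8 and 19.5 CPM to 10.55 and 13 (log2 fold changes −0.67 and −0.91, adjusted p = 0.0080 and 0.015). *sygl-1* and *lst-1*, targets of Notch signalling in the stem cell niche, had log2 fold changes of −0.99 and −0.36 (adjusted p = 0.028 and 0.040). Of 34 genes of the synaptonemal complex and the meiotic axis, *htp-3*, an axis protein, was lower (20 and 19.02 CPM against 11.3 and 11.3, adjusted p = 0.0082), and *spo-11*, which cuts DNA to start recombination, was higher (8.22 and 8.47 CPM against 12.7 and 13, adjusted p = 0.034). Of 18 genes of the switch from sperm to oocytes none was called. The calls of *sygl-1*, *lst-1* and *spo-11* were lost without any 1 of the 4 libraries (adjusted p from 0.051 to 0.17). *fbf-2* was lost without replicate 1 of either genotype, and *fbf-1* and *htp-3* without double mutant replicate 2. The summed level of 10 germline markers was 2430 and 2062 CPM in *set-9* and 1925 and 2240 in the double mutant, and the 2 groups overlapped.

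Among 17 tested factors that write, read or remove H3K4 methylation 3 were higher (17.6%, beside the 14.2% of all genes) and none was lower. *utx-1*, a demethylase of H3K27 that sits in the H3K4 methylation complexes, had 10.7 and 12.12 CPM in *set-9* and 35.4 and 47.9 in the double mutant (log2 fold change 1.87, standard error 0.20, adjusted p = 0.0019), above its level in all other libraries. *set-2*, the main H3K4 methyltransferase, rose by log2 0.41 (120 and 122 against 148 and 173 CPM, adjusted p = 0.033), and *wdr-5.3*, a WD40 protein of that complex, by 0.66 (adjusted p = 0.044). Both were within reach of a single library, since *set-2* lost its call in 3 of the 4 fits without 1 library and *wdr-5.3* in all 4 (highest adjusted p 0.15 and 0.20). Of 19 factors of H3K9, H3K27 and H3K36 methylation 2 were lower and none higher, both shares below the 11.7% and 14.2% of all genes. The 2 were *mes-6*, a subunit of the H3K27 methyltransferase complex, and *set-25*, an H3K9 methyltransferase. *mes-6* had 18.4 and 13.5 CPM against 5.19 and 8.002 (log2 fold change −1.28, adjusted p = 0.013), and *set-25* 59.1 and 58.9 against 43.9 and 39.1 (log2 fold change −0.51, adjusted p = 0.016). *mes-6* lost its call without replicate 1 of either genotype and *set-25* in 3 of the 4 fits, with a highest adjusted p of 0.072 and 0.092. *mes-6* and *set-25* each overlap another annotated gene.

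Of 38 tested histone genes 13 were higher and 1 was lower, against 14.2% and 11.7% of all genes, and 8 of the 38 were also called higher in *set-26* against N2. *his-1*, an H4 gene, had 36.2 and 36.1 CPM in *set-9* and 137 and 160 in the double mutant (log2 fold change 2.04, standard error 0.13, adjusted p = 4.7e-04), against 28.3 and 28.4 in N2 and 51.5 and 61.3 in *set-26*. *his-40*, in a cluster of histone genes on chromosome X, went from 17.7 and 11.5 CPM to 73.9 and 80.2 (log2 fold change 2.40, standard error 0.23, adjusted p = 0.0015). The 1 lower gene was *htz-1*, which encodes the variant H2A.Z, with 284 and 283 CPM against 204 and 215 (log2 fold change −0.44, adjusted p = 0.016), lost without any 1 of the 4 libraries. Of the 38, 14 share more than 50% of their stretches with another gene. The counts come from RNA without poly(A) selection, so histone messages without tails can be seen.

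Genes of the cuticle changed in both directions. Of 22 collagens that form furrows and struts of the cuticle or set the shape of the body (*dpy*, *sqt*, *rol* and *bli* genes), 15 were higher in the double mutant and none was lower, with a median log2 fold change of 1.70. In *set-26* against N2 the same 22 genes had a median of −0.95, with 6 lower and 1 higher. *dpy-4* and *dpy-13*, body shape collagens, rose from 2666 and 1692 CPM to 7900 and 7358 and from 1912 and 1165 CPM to 5798 and 5108 (log2 fold changes 1.81 and 1.83, adjusted p = 0.0088 and 0.0096). *dpy-17* went from 1.94 and 1.30 CPM to 11.5 and 12.7 (log2 fold change 2.89, standard error 0.29, adjusted p = 0.0016), and *dpy-14* from 0.278 and 0.261 CPM to 7.37 and 5.71 (log2 fold change 4.57, standard error 0.61, adjusted p = 0.0036). *dpy-14* had 5 and 4 reads in *set-9*, 1 and 2 in N2 and 139 and 112 in the double mutant. *bli-2*, a collagen of the struts of the adult cuticle, had 84.1 and 74.1 CPM in *set-9* and 325 and 306 in the double mutant (log2 fold change 1.99, adjusted p = 0.0036). Its level was 225 and 391 CPM in N2 and 79.4 and 58.1 in *set-26*, so both single mutants were low and the double mutant overlapped the wild type.

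Among the 120 tested *col* genes, 41 were higher and 25 lower. *col-71* (592 and 331 CPM in *set-9*, 2418 and 2459 in the double mutant, adjusted p = 0.016), *rol-1* (593 and 221 against 2629 and 2490, adjusted p = 0.038) and *sqt-3* (771 and 599 against 2351 and 2249, adjusted p = 0.0078) were among the 5 most abundant of the higher genes. *rol-1* shapes the body and *sqt-3* is a collagen of the embryonic and larval cuticle. *col-41* fell from 461 and 338 CPM to 57.7 and 67.1 (log2 fold change −2.68, standard error 0.24, adjusted p = 0.0012), and *col-147* from 586 and 752 to 121 and 82.4 (log2 fold change −2.72, standard error 0.26, adjusted p = 0.0015). Of the exonic stretches of *col-147*, 47.0% occur in another gene, and *col-71* and *sqt-3* each overlap another annotated gene. The number of higher *col* genes depended on *set-9* replicate 2 and on both double mutant libraries, with 11 without the first and 15 and 13 without the others. The furrow, strut and shape list had 8, 12 and 12 higher genes in these fits. *rol-1* and *col-71* were lost in these 3 fits (highest adjusted p 0.16 and 0.091), *dpy-13* without *set-9* replicate 2 and double mutant replicate 1 (0.056), and *dpy-4* and *sqt-3* without *set-9* replicate 2 (0.053 and 0.052). *bli-2*, *dpy-14*, *dpy-17*, *col-41* and *col-147* stayed called.

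Matrix proteins of the molt changed too. Of 28 tested genes of molting and the apical matrix 13 were higher and 3 lower (46.4% and 10.7%, beside the 14.2% and 11.7% of all genes). Their summed level overlapped between the groups, at 7887 and 10490 CPM in *set-9* and 10000 and 9867 in the double mutant. In N2 it was 14940 and 19050 CPM. The number of higher genes was 6 without *set-9* replicate 2 or double mutant replicate 1, and 7 without double mutant replicate 2. *cut-3*, a cuticlin of larval cuticle, rose from 0.222 and 0.0651 CPM to 4.35 and 4.99 (4 and 1 reads against 82 and 98, log2 fold change 4.92, standard error 0.58, adjusted p = 0.0025). *ptr-16*, of a family of Patched-related membrane proteins, went from 7.22 and 6.25 CPM to 31.3 and 30.7 (log2 fold change 2.2, adjusted p = 0.0057). *fbn-1*, a fibrillin-like protein that anchors the epidermis to its matrix, fell from 441 and 711 CPM to 140 and 143 (log2 fold change −2.02, standard error 0.28, adjusted p = 0.0040), below all 6 other libraries.

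Worms have many secreted proteins with a domain related to Hedgehog (*grd*, *grl*, *wrt* and others) and many relatives of its receptor Patched (*ptc* and *ptr*), most of which serve the epidermis and molting. Of 60 tested genes of this group 27 were higher and 10 lower, with a median of 1.06. *grd-13* (chromosome IV, 3438312 to 3439507) had 202 and 196 CPM in *set-9* and 20.8 and 18.96 in the double mutant, 10.01-fold less by the means (log2 fold change −3.32, standard error 0.14, adjusted p = 2.5e-04). It stood at 85.7 and 69.1 CPM in N2 and at 215 and 222 in *set-26*, so both single mutants were above the wild type and the double mutant was below it. *grd-10* was alike, with 110 and 130 CPM in *set-9*, 23.3 and 20.5 in the double mutant, 71.3 and 70.96 in N2 and 112 and 123 in *set-26* (log2 fold change −2.45, adjusted p = 3.8e-04). *ptr-13* fell from a mean of 16.35 CPM to 3.07 and 2.24 (log2 fold change −2.62, adjusted p = 0.0048).

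Of the ligands that rose, *grd-11* went from 1.67 and 0.651 CPM to 7.68 and 9.38 (log2 fold change 2.85, adjusted p = 0.0079) and *grd-2* from 6.66 and 4.04 to 36.1 and 35.2 (log2 fold change 2.73, adjusted p = 0.0098). *wrt-2* had 101 and 116 CPM in *set-9* and 264 and 256 in the double mutant (log2 fold change 1.26, adjusted p = 0.0040), with 311 and 421 in N2 and 132 and 106 in *set-26*. *ptc-3*, a Patched receptor, rose from 173 and 155 CPM to 350 and 365 (log2 fold change 1.12, adjusted p = 0.017). Without *set-9* replicate 2 the number of higher genes of the group was 9, and without either double mutant library it was 11. *grd-2* and *ptc-3* were then among the genes lost (highest adjusted p 0.063 and 0.096). *grd-13*, *grd-10*, *ptr-13*, *grd-11* and *wrt-2* were called in every fit that left out 1 library. *grd-11* and *wrt-2* overlap other annotated genes.

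Several regulators of larval timing were lower. Of 12 tested regulators of the molting cycle 8 were lower and 1 higher, with a median of −0.55, and of 10 heterochronic genes, which assign cells the fates of a given larval stage, 5 were lower and none higher. The number of lower heterochronic genes was 1 without double mutant replicate 1 and 0 without any of the other 3 libraries. *nhr-25*, a nuclear receptor needed for molting, fell from 50.6 and 50.7 CPM to 28.1 and 26.0 (log2 fold change −0.91, standard error 0.14, adjusted p = 0.0051), near its 21.9 and 23.8 CPM in N2. *elt-3*, a GATA factor of the epidermis, fell from 95.8 and 106 CPM to 54.5 and 45.3 (log2 fold change −1.02, adjusted p = 0.0032). The 1 higher regulator was *bed-3*, a zinc finger protein of molting, with 29.3 and 16.22 CPM against 101 and 94.4 (log2 fold change 2.10, adjusted p = 0.016). Of the heterochronic genes, *lin-46*, which acts in the pathway of *lin-28*, fell from 2.83 and 3.19 CPM to 0.636 and 0.815 (adjusted p = 0.030), *lin-14*, a factor of early larval fates, from 28.99 and 30.7 to 20.5 and 18.6 (adjusted p = 0.023), and *lin-29*, which triggers the switch of the epidermis to the adult state, from 111 and 115 to 88.4 and 73.9 (adjusted p = 0.033). The last 3 calls and that of *bed-3* did not hold without single libraries (highest adjusted p 0.14, 0.12, 0.16 and 0.092), and the number of lower molting regulators was 2 to 7 in those fits, the lowest without double mutant replicate 2.

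**Figure D3:**
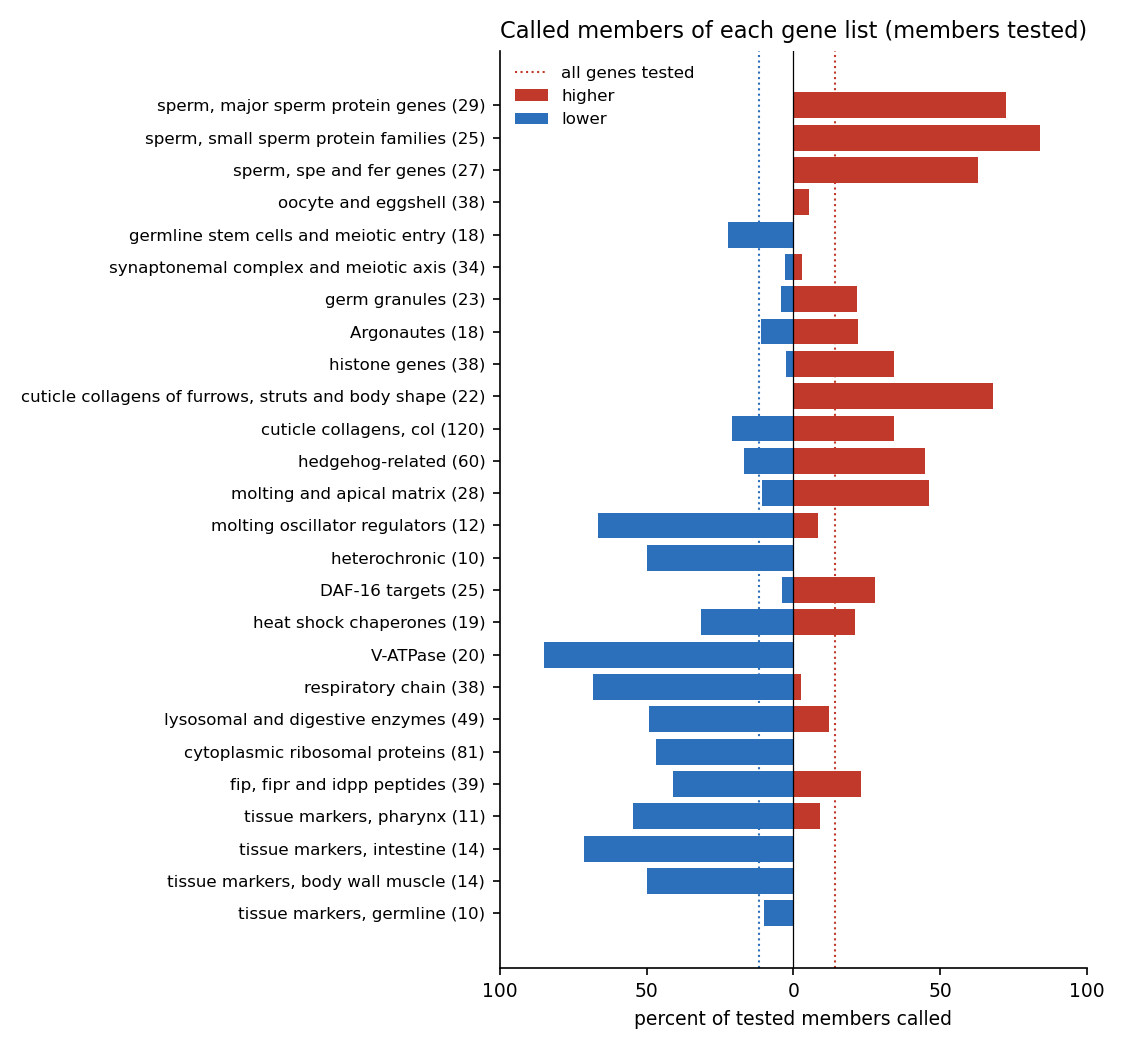
Bars give the percent of tested members of 26 gene lists called higher (red, to the right) or lower (blue, to the left) in the double mutant against *set-9*, with the number tested in parentheses and dotted lines at 14.2% and 11.7%, the shares over all genes. Sperm and cuticle lists lie to the right, with 84.0% of the small sperm families higher, and the V-ATPase to the left, with 85% lower.

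Genes of energy metabolism and digestion fell together. The V-ATPase, the proton pump of lysosomes and of the apical membranes of intestine and epidermis, had 17 of 20 tested genes lower and none higher, with a median log2 fold change of −0.79. *vha-12* fell from 1221 and 1242 CPM to 665 and 658 (log2 fold change −0.90, standard error 0.09, adjusted p = 0.0015), and *vha-6*, its intestinal subunit, from 349 and 344 to 163 and 186 (log2 fold change −0.99, standard error 0.11, adjusted p = 0.0019). The 2 genes had 1180 to 1207 and 317 to 326 CPM in N2 and 789 to 849 and 211 to 231 in *set-26*. In *set-26* against N2 the list had 8 lower genes and a median of −0.47, and no gene of the list had an interaction. The number of lower genes was 15 to 17 in the fits that left out 1 library.

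Of 38 genes of the respiratory chain and ATP synthase 26 were lower and 1 higher, and the median was −0.56. *atp-1* and *atp-2*, subunits of the mitochondrial ATP synthase, fell from 7172 and 6976 CPM to 3240 and 3372 and from 3405 and 3829 to 1570 and 1791 (log2 fold changes −1.10 and −1.11, standard errors 0.08 and 0.10, adjusted p = 6.7e-04 and 0.0013). The 1 higher gene was *cyc-2.2*, a second gene for cytochrome c, which went from 5.83 and 3.91 CPM to 23.7 and 20.7 (log2 fold change 2.18, standard error 0.23, adjusted p = 0.0017). The mitochondrial chaperones *hsp-60* and *hsp-6* fell from 1200 and 1478 CPM to 495 and 554 and from 1732 and 1786 to 951 and 975 (log2 fold changes −1.35 and −0.87, adjusted p = 0.0023 and 0.0014). The number of lower genes of the respiratory chain was 12 to 17 in the fits that left out 1 library, the lowest without *set-9* replicate 2.

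Of 49 lysosomal and digestive enzymes 24 were lower and 6 higher. Without *set-9* replicate 2 or double mutant replicate 2 there were 14 lower and 2 higher, without double mutant replicate 1 there were 16 and 3, and without *set-9* replicate 1 there were 19 and 3. *cpr-1*, a gut cathepsin B, fell from 716 and 852 CPM to 172.4 and 195 (log2 fold change −2.09, standard error 0.15, adjusted p = 5.7e-04), and *asp-1*, an aspartyl protease of the intestine, from 9513 and 10055 to 4963 and 5383 (log2 fold change −0.92, standard error 0.08, adjusted p = 0.0011). *act-5*, the actin of intestinal microvilli, and *pept-1*, the intestinal peptide transporter, fell by 0.92 and 1.03 on the log2 scale (adjusted p = 0.0056 and 0.0023). *ahcy-1*, the enzyme that clears the by-product of methylation reactions, was among the 5 most abundant of the lower genes and went from 6558 and 6731 CPM to 3187 and 3383 (log2 fold change −1.02, standard error 0.10, adjusted p = 0.0015).

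Markers of somatic tissues are given beside these falls. Of 14 intestine markers 10 were lower, and their summed level was 15960 and 16650 CPM in *set-9* against 8717 and 9443 in the double mutant. The markers include *asp-1*, *cpr-1*, *vha-6*, *act-5* and *pept-1*, and *asp-1* makes up most of the sum. Their fall is thus not separate from the falls given above. The 4 not called were *elt-2*, *ges-1*, *elt-7* and *cpr-6*, with log2 fold changes of −0.22, 0.29, 0.41 and 0.62. Of 11 pharynx markers 6 were lower and 1 higher (1308 and 1535 against 699 and 613 CPM), and of 14 markers of body wall muscle 7 were lower (46520 and 50910 against 39270 and 39800 CPM). None of the defining markers of these tissues was at 0. *myo-2* and *tnt-4*, the myosin and a troponin T of the pharynx, fell from 444 and 544 CPM to 222 and 200 and from 130 and 145 to 56.5 and 47.9 (log2 fold changes −1.22 and −1.40, adjusted p = 0.0016 and 0.0014). *unc-54*, the main myosin of body wall muscle, fell by 0.39 on the log2 scale (adjusted p = 0.018), a call lost without *set-9* replicate 2 and without either double mutant library (highest adjusted p 0.12). The part of tissue size in the falls of metabolic genes was not tested.

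Cytoplasmic ribosomal proteins fell slightly. Of 81 tested genes 38 were lower and none higher, with a median of −0.34, and 79 of the 81 log2 fold changes were below 0. *rla-0*, an acidic ribosomal protein, had 5135 and 5327 CPM against 3662 and 3778 (log2 fold change −0.49, standard error 0.08, adjusted p = 0.0059), and *eef-1A.1*, a translation elongation factor, 6558 and 7364 against 4495 and 5650 (−0.46, adjusted p = 0.041, lost without either *set-9* library or without double mutant replicate 1). The count of lower genes dropped to 5 without *set-9* replicate 2 and was 8 to 16 without another library. A change of this size could be moved by the scaling of the libraries, and scaling by DESeq2's size factors or by the upper quartile shifted the median over all genes by 0.0087 and −0.011.

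Subunits of the Na+/K+ ATPase, the pump that keeps the ion gradients of cells, split in direction. *eat-6*, the main alpha subunit, and *nkb-3*, a beta subunit, fell from 944 and 976 CPM to 509 and 586 and from 770 and 700 to 339 and 294 (log2 fold changes −0.81 and −1.22, adjusted p = 0.0047 and 0.0017). *catp-4*, a P-type ATPase of the same family, rose from 1.06 and 1.56 CPM to 16 and 14.7 (log2 fold change 3.56, standard error 0.59, adjusted p = 0.0062), and *nkb-2*, a beta subunit, from 2.83 and 2.08 to 10.44 and 13.1 (log2 fold change 2.25, adjusted p = 0.0025). Among 11 tested P-type cation ATPases and beta subunits 2 were higher and 4 lower. *catp-4* also varied between the 2 N2 libraries, at 15.1 and 4.20 CPM. *catp-3*, another P-type ATPase, had 65.4 and 60.7 CPM in *set-9* and 61.6 and 56.3 in the double mutant (log2 fold change −0.10, standard error 0.12, adjusted p = 0.60), against 15.2 and 14.4 in N2 and 100 and 117 in *set-26*.

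DAF-16 is the FOXO transcription factor that insulin signalling holds back, and its targets include genes of stress resistance. Of 25 tested DAF-16 targets 7 were higher and 1 lower, with a median of 0.60, where 14.2% of all genes were higher and 11.7% lower. *hsp-16.2*, a small heat shock protein, had 0.444 and 0.651 CPM in *set-9* and 7.102 and 3.26 in the double mutant (log2 fold change 3.24, standard error 0.49, adjusted p = 0.0048), and 0.63 and 0.737 CPM in N2 and 3.002 and 2.70 in *set-26*. *icl-1*, the glyoxylate cycle enzyme, rose from 479 and 394 CPM to 706 and 762 (log2 fold change 0.75, adjusted p = 0.012), and *dod-3* from 2.06 and 2.02 to 14.5 and 13.4 (log2 fold change 2.77, adjusted p = 0.013). The 1 lower target was *lys-7*, a lysozyme, with 51.5 and 43.8 against 30.2 and 20.03 CPM (adjusted p = 0.038). The count of higher targets was 2 to 3 without a library, and *dod-3*, *icl-1* and *lys-7* were among the calls lost (highest adjusted p 0.069, 0.079 and 0.185).

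Of 19 tested heat shock chaperones 4 were higher and 6 lower. Without *set-9* replicate 2 there were 2 and 3, without double mutant replicate 1 there were 3 and 3, without double mutant replicate 2 there were 2 and 4, and without *set-9* replicate 1 there were 2 and 5. The stress-inducible *hsp-70* had 2.111 and 0.782 CPM in *set-9* and 8.11 and 9.22 in the double mutant (log2 fold change 2.56, standard error 0.42, adjusted p = 0.0062). *hsp-16.2*, *hsp-16.41* and *hsp-4*, the chaperone of the endoplasmic reticulum, were the other higher genes, and the lower ones included *hsp-60* and *hsp-6* of mitochondria and the constitutive *hsp-1* and *hsp-90*.

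Of 19 genes of the insulin pathway 2 were higher and 1 lower (shares below the 14.2% and 11.7% over all genes), with 1 to 2 higher and none lower in the fits that left out 1 library. *akt-1* and *pdk-1*, kinases that act against DAF-16, rose by log2 0.80 and 0.70 (62.7 and 57.8 against 107 and 103.6 CPM, and 18.2 and 17.98 against 29.6 and 29.4, adjusted p = 0.0058 and 0.015). *sgk-1*, a related kinase, fell by 0.53 on the log2 scale (adjusted p = 0.038), and *daf-16* itself had 354 and 392.3 against 261 and 309 CPM (log2 fold change −0.39, standard error 0.13, adjusted p = 0.057). *pdk-1* and *sgk-1* lost their calls without any 1 of the 4 libraries (highest adjusted p 0.081 and 0.17).

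Small secreted peptides were among the deepest falls. Of 39 tested *fip*, *fipr* and *idpp* genes, families of short secreted peptides, 16 were lower and 9 higher. The number of higher genes was 5 without *set-9* replicate 2 and 3 and 4 without double mutant replicates 1 and 2. *idpp-15* fell from 351 and 407 CPM to 62.6 and 46.3 (log2 fold change −2.80, standard error 0.20, adjusted p = 6.6e-04), and *fipr-4* from 24.8 and 19.5 to 3.34 and 2.60 (log2 fold change −2.90, standard error 0.30, adjusted p = 0.0016). *nlp-26*, of the neuropeptide-like genes, which include antimicrobial peptides of the epidermis, fell from 3.999 and 5.67 CPM to 0.424 and 0.459 (log2 fold change −3.43, standard error 0.35, adjusted p = 0.0016).

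Some of the largest falls were at genes with no name beyond their position in the genome. *C29F3.3* (WBGene00007804, chromosome V, 15346674 to 15347392) had 577 and 352 reads in *set-9* and 27 and 25 in the double mutant. Its levels were 32.05 and 22.9 CPM in *set-9*, 1.43 and 1.27 in the double mutant, 4.53 and 5.05 in N2 and 36.7 and 29.9 in *set-26*. Both single mutants were above N2 and the double mutant was below it, 20.3-fold less than *set-9* by the means (log2 fold change −4.34, standard error 0.25, adjusted p = 3.8e-04). Of the genes with names beginning C01G10 on the same chromosome, 10 were tested between 15080134 and 15105943, and 5 neighbours fell together. *C01G10.15*, *C01G10.6*, *C01G10.5*, *C01G10.4* and *C01G10.17* had log2 fold changes of −3.28, −3.46, −4.13, −3.96 and −3.80 (adjusted p from 4.3e-04 to 0.018). *C01G10.6*, the most abundant, went from 16.107 and 20.2 CPM to 1.64 and 1.63, with 6.22 and 5.33 in N2 and 12.4 and 14.2 in *set-26*. On the far side of the cluster 2 of the 10 genes were higher, and the other 3 were not called. These neighbours were singled out after their values were seen, and *C01G10.15* lost its call in 3 of the 4 fits without 1 library (highest adjusted p 0.088).

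*C46G7.1* (chromosome IV, 6018003 to 6019716) had 212 and 52 reads in *set-9*, 101 and 52 in N2, and 0 in both double mutant and both *set-26* libraries. Against a floor of 3 reads per library it was at least 48.6-fold lower in the double mutant (adjusted p = 0.0063). It overlaps the gene *pqn-22*. All 4 libraries that carry the *set-26* allele thus had no read on it, and a linked difference in the DNA of that strain was not tested.

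The reverse case held for genes without a read in *set-9*. Of the 2085 higher genes, 75 had 0 reads in both *set-9* libraries, and 7 tested genes had 0 there and at least 20 reads in each of the 6 other libraries. For *set-26* 1 gene had this pattern, and no gene had it for N2 or for the double mutant. The double mutant carries the same *rw5* allele as *set-9*, and a difference in the DNA of the *set-9* strain was not tested. *his-70*, which encodes an H3.3-type histone, had 105 and 108 reads in the double mutant, 61 and 57 in N2 and 72 and 40 in *set-26*, at least 30.6-fold above *set-9* (adjusted p = 0.0015). *wht-4*, an ABC transporter, had 98 and 108 reads in the double mutant, 22 and 27 in N2 and 44 and 35 in *set-26*, at least 29.6-fold above *set-9* (adjusted p = 0.0015). *arrd-28*, an arrestin-domain gene, *F53B2.5*, *C18H2.5* and *K06A1.2* and 1 pseudogene were the others, and they lie on chromosomes II, III, IV and X. *C18H2.5* had 21 and 150 reads in the double mutant, and its call was lost in 3 of the 4 fits without 1 library (highest adjusted p 0.069).

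Other large rises came from genes near 0 everywhere but in the double mutant. *K12H6.9* had 191 and 121 reads there and 0 to 6 in the 6 other libraries, at least 45.0-fold above *set-9* (adjusted p = 0.0023). *C05B5.11* had 81 and 84 reads there and 0 to 4 elsewhere, at least 23.7-fold above *set-9* (adjusted p = 0.0048).

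**Figure D4:**
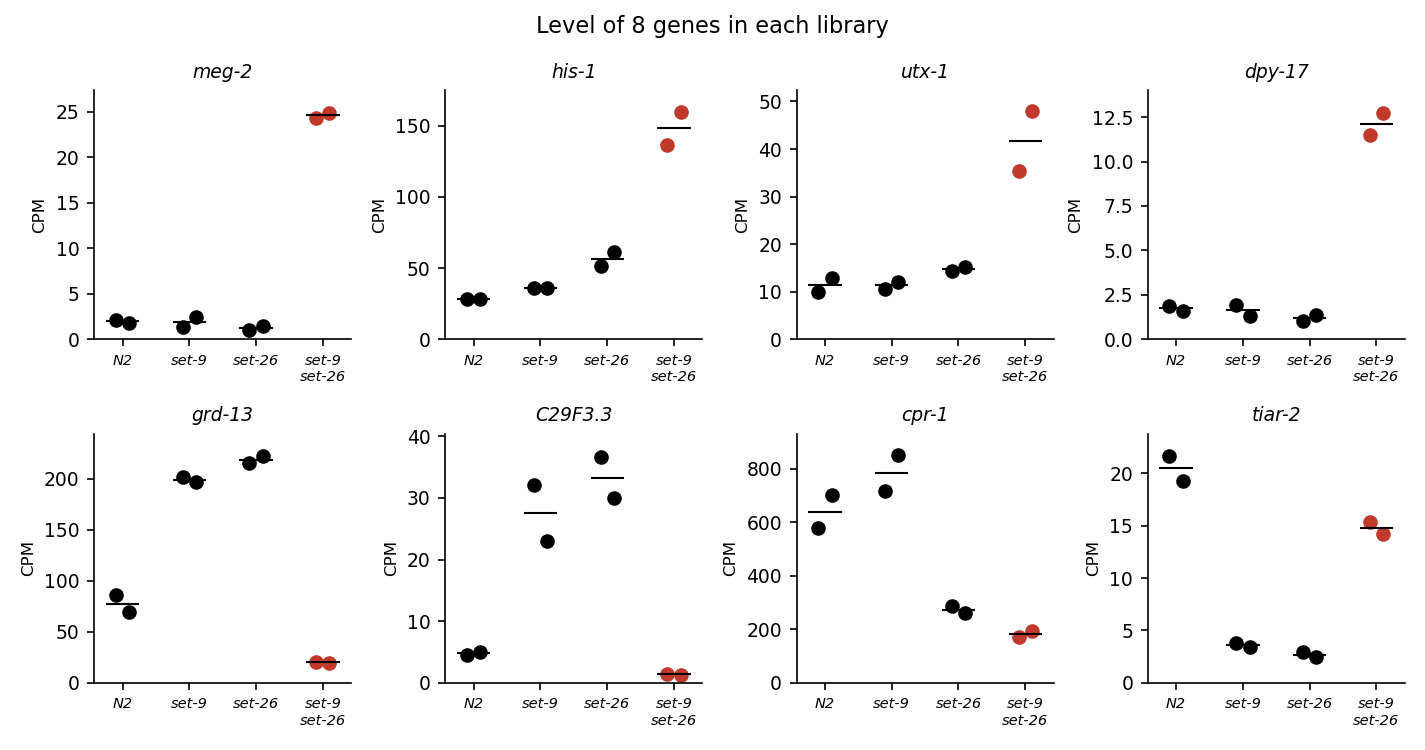
Points give the CPM of 8 genes in each library (replicate 1 to the left), with bars at the mean of 2 libraries and the double mutant in red. *meg-2*, *his-1*, *utx-1* and *dpy-17* are highest in the double mutant, *grd-13* and *C29F3.3* are high in both single mutants and lowest in the double mutant, *cpr-1* is low in *set-26* and lower in the double mutant, and *tiar-2* is low in both single mutants.

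The change that went with loss of *set-26* was then set beside the same loss in worms that have *set-9*, *set-26* against N2, which uses 4 other libraries. There 143 genes were higher (0.975% of those tested) and 208 lower (1.42%), 351 together. Without N2 replicate 2, *set-26* replicate 1 or *set-26* replicate 2 they were 42, 49 and 20, and without N2 replicate 1 they were 245. Of the 143 genes, 39 (27.3%) were also higher in the double mutant against *set-9* and 50 (35%) were lower, and of the 208 genes 62 (29.8%) were higher and 61 (29.3%) lower. These are 1.87%, 2.92%, 2.97% and 3.56% of the 2085 or 1715 genes called in the double mutant. Genes called after loss of *set-26* in the wild type thus went both ways after its loss in *set-9*. Over all 14667 genes the 2 log2 fold changes had a Pearson's r of −0.055, given as a description.

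The difference between the 2 changes was tested as an interaction. It was positive in 1213 genes (8.27% of those tested) and negative in 821 (5.6%), together 13.9%. The total of 2034 was 330 and 503 without double mutant replicates 2 and 1, 491 without *set-26* replicate 2, 700 without *set-9* replicate 2 and 1246 without N2 replicate 1. Of the 2085 higher genes 994 had a positive interaction and 4 a negative one, and of the 1715 lower genes 699 had a negative and 1 a positive one. The interaction contains the change by which these genes were chosen, so the match in sign is partly built in and tests nothing. The study measured some genes by quantitative PCR to check its RNA-seq changes of *set-26* or the double mutant over wild type. They may have been chosen by those changes, so they serve as examples only. Among them *tiar-2*, an RNA-binding protein, was the clearest example. It had 21.7 and 19.3 CPM in N2, 2.95 and 2.43 in *set-26*, 3.78 and 3.39 in *set-9* and 15.3 and 14.2 in the double mutant. Loss of *set-26* thus went with a log2 fold change of −2.92 in the wild type and 2.04 in *set-9* (standard error 0.18, adjusted p = 0.0013). *Y43D4A.5* was alike, with −2.03 and 1.33 (27.8 and 34.5 against 76.8 and 80.1 CPM, adjusted p = 0.0095), and its call was lost without double mutant replicate 2 (adjusted p 0.055).

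Other genes of that set changed by a like amount in both backgrounds. *M04C3.1* fell from 146 and 129 CPM in *set-9* to 49.3 and 39.9 in the double mutant, and from 168 and 177 in N2 to 55.8 and 59.2 in *set-26* (log2 fold changes −1.63 and −1.58, adjusted p = 0.0011 and 0.0051). *asp-12*, an aspartyl protease, fell from 36.99 and 30.5 CPM to 15.5 and 16.105 and from 72.6 and 73.1 to 29.5 and 34.1 (−1.10 and −1.195, adjusted p = 0.0031 and 0.011). *inx-2*, a gap junction innexin, rose from 3.17 and 2.80 CPM to 11.1 and 7.59 (1.64, adjusted p = 0.0099, lost without *set-9* replicate 2 and without double mutant replicate 1) and had 0.906 and 1.53 against 2.85 and 3.19 (1.33, adjusted p = 0.098). The interactions of these 3 genes were −0.04, 0.10 and 0.31 with standard errors of 0.18, 0.19 and 0.46, and none passed the threshold.

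**Figure D5:**
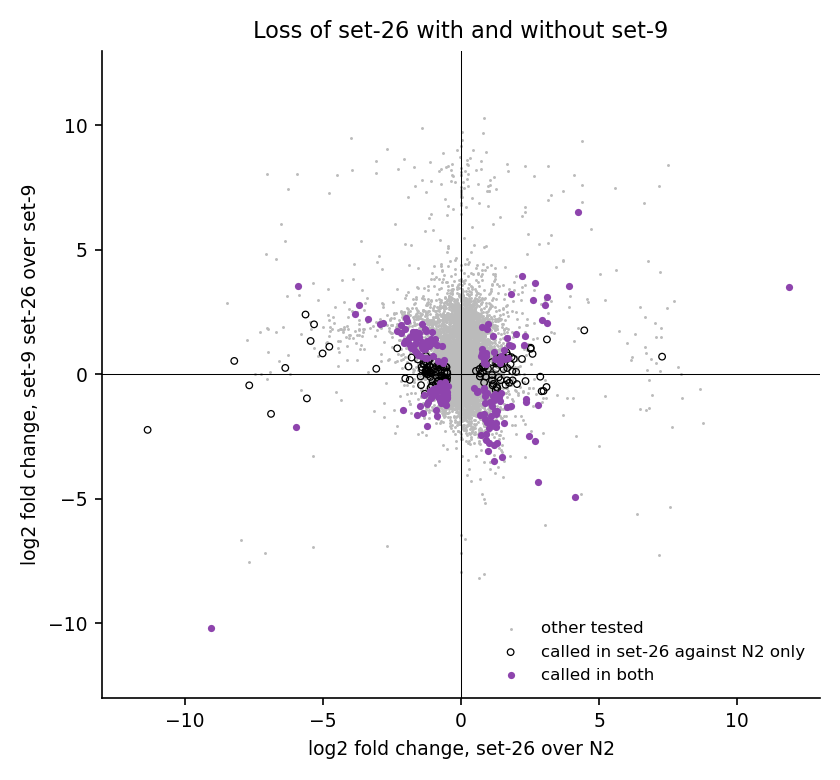
Each point is 1 of the 14667 genes, with the log2 fold change of *set-26* over N2 on the x axis and of the double mutant over *set-9* on the y axis. The 212 genes called in both comparisons (purple) lie in all 4 quadrants, and the 139 called in *set-26* against N2 only (open circles) lie near 0 on the y axis or off it in either direction.

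Called genes were found on every chromosome. The share of higher genes was 17.0% on chromosome IV, which carries *set-9* and *set-26*, 16.7% on II, 14.3% on I, 13.5% on V, 13% on X and 10.8% on III. Of the genes on I 239 of 2378 were lower, and on X 280 of 2044 (13.7%). In bins of 1 Mb along chromosome IV the share of higher genes was 8.18% to 31.1%, with the most between 5000001 and 6000000, where 47 of 151 genes were higher and 9 lower. Genes of the sperm lists made up 4 of those 47, and 30.7% of the other genes in the bin were higher. The sperm lists held only 11 genes of the bin, and whether the other genes are expressed in sperm was not tested.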

How the data were processed

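RNA-seq was compared between 2 *set-9 set-26* double mutant and 2 *set-9* libraries, with 2 N2 and 2 *set-26* libraries as reference. The authors trimmed reads (FASTX, cutadapt), removed ribosomal reads with Bowtie, aligned the rest to annotated junctions of WS250 with TopHat2 and deposited estimated counts per gene from Cufflinks. Of these values 52.3% were whole, and all were rounded to whole numbers. The libraries held 16401207 to 26256130 reads, so 3 reads, the floor used for genes at 0, were 0.118 to 0.195 CPM. Left out were 93 rows that name no gene but a landmark, which held 0.219 to 0.277% of reads. Of 46508 IDs 43184 were matched to a name and 45919 placed on WBcel235.

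Genes with at least 20 reads in 1 or more of the 8 libraries were fitted with edgeR 4.0.16 (R 4.3.3; limma 3.58.1; TMM scaling; quasi-likelihood test) with 1 mean per genotype over all 8 libraries, and p-values were adjusted by Benjamini-Hochberg over all tested genes. Members and lists were chosen with earlier results of these data known. The text names up to 3 members of a list passing in each direction by fold change and up to 3 by level, the 10 largest changes each way (protein-coding, 20 reads or more in each library of the group with more, groups not overlapping, and the same sign within each replicate number), the 5 most abundant called genes each way, *set-9* with its duplicated neighbours and genes the study measured by quantitative PCR. It shows a selection of these. On simulated data for the double mutant against *set-9* (14226 genes, 200 changed), 0% of 1.5-fold, 28.4% of 2-fold and 72.7% of 4-fold changes were recovered, and 10.7% of calls were false. That false share was above the 5% set as the false discovery rate. The simulated share of changed genes was far below the 25.9% called in the data, so these rates do not carry over to the calls. Alternatives were DESeq2 1.42.0 (size factors, Wald test), upper quartile scaling, edgeR's exact test, other filters, a 2-fold minimum, only the libraries compared, the replicate block, each library left out and, chosen after seeing the data, landmark reads added. Sequences came from the RefSeq genome. The row of *set-26* was not analysed here. Figures were drawn with matplotlib 3.10.9.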

Additional observations from a re-analysis of the deposited data

Results flagged for a closer look

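The change that went with loss of *set-26* differed between worms with and without *set-9* at 2034 genes, and 84 of the genes named above were among them. These passed the interaction in edgeR's quasi-likelihood test (5% false discovery rate over all genes). The double mutant was also kept over nT1 and is likely of the third generation, and the part of these in the interactions was not tested. Values are the log2 fold change of the double mutant over *set-9* minus that of *set-26* over N2. Groups of 2 libraries were too small to look for single libraries far from the rest. Sperm genes had interactions of 2.92, 2.71, 2.99 and 2.83 (*spe-6*, *spe-8*, *msp-64* and *msp-142*). For *gsp-3*, *gsp-4*, *nspd-10* and *ssp-19* they were 2.22, 2.31, 3.07 and 3.55. For *alg-3* and *alg-4* they were 2.14 and 1.47. Other germline genes had interactions of 4.47, 4.4, 1.82 and 4.70 (*meg-1*, *meg-2*, *gna-2* and *perm-4*). For *fbf-1*, *fbf-2*, *htp-3* and *ppw-2* they were −0.70, −1.2, −0.83 and −1.26. For *wago-4* it was −0.73. The yolk genes had interactions of 5.04 and 4.66 (*vit-2* and *vit-6*), though neither was called in the double mutant against *set-9*. In *set-26* against N2 the 6 *vit* genes had a median log2 fold change of −4.14, and 2 were lower. Their summed level was 13940 and 5864 CPM in N2 and 1112 and 306 in *set-26*. Chromatin genes had interactions of 1.49, −1.61, 1.04 and 1.39 (*utx-1*, *mes-6*, *his-1* and *his-40*). For *set-9* it was −0.73. Cuticle and matrix genes had interactions of 4.16, −5.35, 4.42 and −3.63 (*bli-2*, *col-41*, *col-71* and *col-147*). For *dpy-4*, *dpy-13*, *dpy-17* and *rol-1* they were 2.09, 2, 3.46 and 4.44. For *sqt-3*, *cut-3* and *fbn-1* they were 2.63, 4.55 and −1.89. Hedgehog-related genes and relatives of Patched had interactions of 3.71, −3.18, −4.82 and 1.62 (*grd-2*, *grd-10*, *grd-13* and *ptc-3*). For *ptr-13*, *ptr-16* and *wrt-2* they were −4, 2.38 and 2.88. Timing regulators had interactions of −2.30, −0.81, −0.90 and −3.89 (*nhr-25*, *elt-3*, *lin-14* and *lin-46*). Metabolic and intestinal genes had interactions of −0.50, 1.83, −0.65 and −1.03 (*atp-1*, *cyc-2.2*, *hsp-6* and *hsp-60*). For *asp-1*, *cpr-1*, *act-5* and *pept-1* they were −0.78, −0.87, −0.83 and −0.77. For *ahcy-1* it was −0.91. Ion pumps had interactions of −0.69, −1.11, 4.03 and 2.15 (*eat-6*, *nkb-3*, *catp-4* and *nkb-2*). For *catp-3* it was −2.97. Pharynx and ribosome genes and a kinase had interactions of −1.39, −1.58, −0.42 and 0.87 (*myo-2*, *tnt-4*, *rla-0* and *akt-1*). Peptide genes had interactions of −3.69, −4.08 and −3.12 (*nlp-26*, *fipr-4* and *idpp-15*). Genes without a known role here had interactions of −7.14, −5.18, −5.65 and −4.66 (*C29F3.3*, *C01G10.4*, *C01G10.5* and *C01G10.6*). For *C01G10.15* and *C01G10.17* they were −3.82 and −4.84. An RNA-binding protein gene and an unnamed gene had interactions of 4.96 and 3.37 (*tiar-2* and *Y43D4A.5*). Genes at 0 reads in both *set-9* libraries had interactions of 9.69, 8.89, 7.62 and 8.56 (*his-70*, *wht-4*, *arrd-28* and *F53B2.5*). For *C18H2.5*, *K06A1.2* and *K12H6.9* they were 9.36, 7.52 and 9.45. The fitted values of the last group depend on the prior count and are no bound.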

How the results depend on the processing

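No call for the double mutant against *set-9* changed direction under any alternative. The counts of 2085 higher and 1715 lower genes stayed within 1.5 times of these values under the other scalings, tests and filters, except that 566 lower genes changed at least 2-fold. Leaving out 1 library gave 725 to 1695 higher and 668 to 1091 lower genes. A lone library was then assumed to vary like the other groups. Of the 111 named genes that were called, 69 were called in each of those fits and 42 were lost in at least 1, most often without *set-9* replicate 2 (36) or double mutant replicate 2 (35). The 351 genes changed in *set-26* against N2 were less stable. They were 838 with DESeq2's Wald test, 926 with edgeR's exact test, 15 with only the libraries compared, 989 with no filter on low counts, 219 at 2-fold or more, and 20 to 245 without 1 library. The 2034 interactions were 330 to 1853 without 1 library. The causes were not tested.

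Same-numbered libraries of *set-9* and the double mutant deviated from their group means with a correlation of 0.0442, so the numbers were not taken to pair them. The correlation was 0.113 between N2 and *set-26*, 0.177 between N2 and *set-9*, 0.169 between *set-9* and *set-26*, and 0.0568 and 0.0543 between the double mutant and N2 or *set-26*. With the replicate block there were 2414 higher and 2043 lower genes, 2880 interactions and 721 genes changed in *set-26* against N2, and 5 of 6 *vit* and 16 of 38 oocyte and eggshell genes were higher in the double mutant than in *set-9*, against 0 and 2 without the block.

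With 2 libraries a group, small changes such as those of ribosomal proteins lie near the limit of detection, and a gene that was not called is not shown to be unchanged.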

Other observations

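Large gene families that the text has not described moved by less than the sperm, cuticle and metabolic lists. Of 175 tested nuclear hormone receptors, ligand-gated transcription factors of which worms have many, 21 were lower and 1 was higher, with a median log2 fold change of −0.22, where 11.7% of all genes were lower and 14.2% higher. Detoxification genes had 27 lower and 9 higher members, with a median of −0.22. Their share of lower members was above the 11.7% of all genes, and their share of higher members was below the 14.2%. Of 109 C-type lectins, many of which respond to bacteria, 24 were higher and 15 lower, with 9 to 16 and 3 to 8 in the fits that left out 1 library, the fewest higher without double mutant replicate 2. Of 152 F-box and MATH genes 13 were higher (8.55%) and 6 lower (3.95%), both below the shares over all genes. Without *set-9* replicate 1 there were 8 higher, and without any of the other 3 libraries 0 or 1.

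The shares that follow are to be read beside the 14.2% higher and 11.7% lower among all genes. Of 92 neuropeptide genes 9 were lower (9.78%) and 3 higher (3.26%), and of 20 insulin-like peptides 3 were lower (15%) and 1 was higher (5%). Of 33 proteasome subunits 1 was higher (3.03%), with a median of 0.09. Of 40 genes of fatty acid synthesis 11 were lower (27.5%) and 8 higher (20%). Of 39 genes of intraflagellar transport, which builds sensory cilia, 5 were higher (12.8%) and 1 was lower (2.56%). Of 58 linc RNAs 4 were higher (6.9%) and 1 was lower (1.72%). Of 23 genes of the mutator and nuclear RNAi pathways 2 were higher and 2 lower (8.7% each). Of 17 DREAM and synMuv B genes 2, *lin-15A* and *lin-15B*, were higher (11.8%, below the share of all genes). Of 12 epidermis markers 4 were higher (33.3%) and 5 lower (41.7%), and of 14 neuron markers 3 were lower (21.4%). Of 13 markers of the somatic gonad 3 were higher (23.1%) and 2 lower (15.4%).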
